A study of Caenorhabditis elegans with 18 samples.

Results

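The change between 0 days and 14 days in the effect of nanoscale zero-valent iron (nZVI), fine iron particles mixed into polluted soil to bind metals, was measured across the transcripts of Caenorhabditis elegans. It was taken as the nZVI minus control difference at 14 days minus the same difference at 0 days, and is called the interaction here. The members were the 25546 probe sets paired with a single gene symbol, of 28387 probe sets on the array, read in 12 of the 18 arrays of the series. The groups were nZVI soil at 14 days, control soil at 14 days, nZVI soil at 0 days and control soil at 0 days, with 3 arrays each. All worms were wild-type strain N2, raised for 2 days in liquid until they were fourth-stage larvae or young adults. In every group 7500 to 10000 worms were then kept for 48 h, with OP50 bacteria as food, in a well holding 0.3 g of soil that carried lead (2700 mg/kg), zinc (4200 mg/kg) and cadmium (310 mg/kg), so the control worms met the metals too. The labels do not say from what event the days are counted. Each array was hybridised with RNA from a pool of whole worms, in which fewer cells of a type and less RNA per cell cannot be told apart.

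The worm's cuticle is an extracellular coat built largely of collagens, which are made by the epidermis in waves that accompany each moult, with some members made only for the adult coat. The same epidermis secretes small antimicrobial peptides of the nlp and caenacin families when it is wounded or infected. Ferritin stores iron inside cells, and in the worm its transcripts, above all ftn-1, are known to rise when iron is plentiful. Cadmium and zinc are met by metallothioneins, by the cadmium-responsive cdr genes and by glutathione synthesis.

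Values are log2 signals, in which a difference of 1 is a 2-fold change. Array medians lay between 3.85 and 3.99, and arrays of a group correlated with r between 0.980 and 0.996 across probe sets. Array 2 of nZVI soil at 14 days stood apart: on the first principal component, which held 38.1% of the variance, it scored 18.8, against 60.5 and 63.4 for arrays 1 and 3 of its group. Its mean over 30 germline and meiosis genes was 8.21, against 7.47 and 7.50 in the other two. On 20 neuron and synapse genes it had 7.38, against 7.83 and 7.96, and on 21 hypodermis and moulting genes 7.60, against 8.62 and 8.73. Intestine, muscle and germline markers had signal in all groups, and the 15 male markers averaged at most 4.08 on any array. Because each interaction combines 4 groups, its median standard error was 0.246, against 0.174 for the nZVI effect at 0 days.

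**Figure D1:**
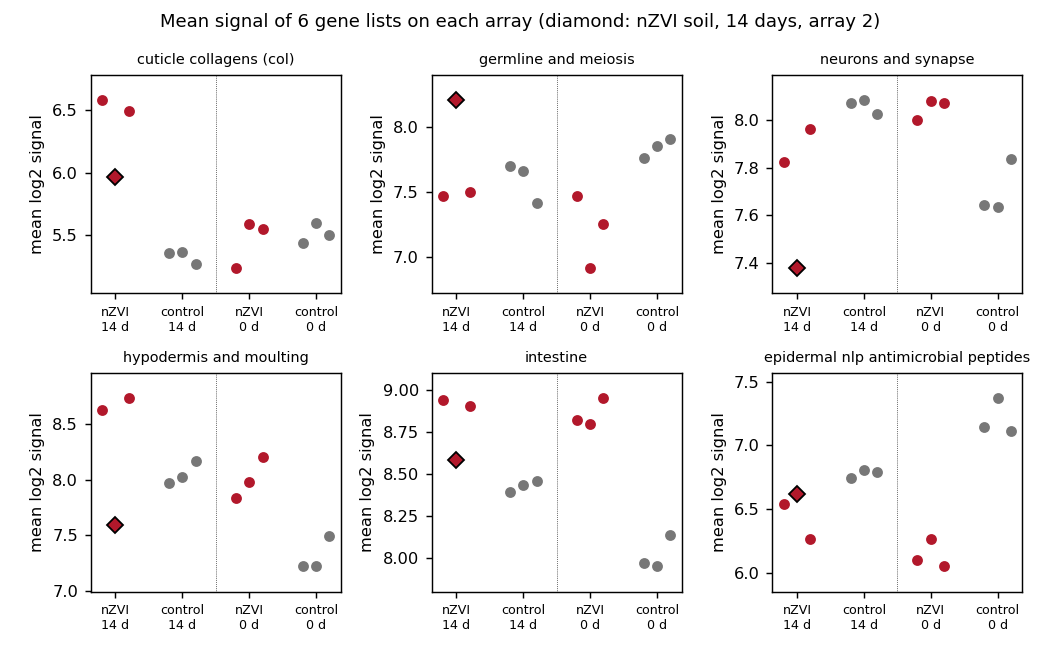
Mean log2 signal (vertical axis) of 6 gene lists on each of the 12 arrays, grouped along the horizontal axis by soil and time, with nZVI soil in red, control soil in grey and array 2 of nZVI soil at 14 days as a diamond. The diamond lies at 8.21 in the germline panel, where the other arrays of its group lie at 7.47 and 7.50, and at 5.96 in the collagen panel, where they lie at 6.58 and 6.49.

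The nZVI effect was higher at 14 days than at 0 days for cuticle collagens such as rol-1, bli-2 and col-38 and for the infection response gene irg-6, and lower for the ferritin ftn-1, the glutathione S-transferase gst-12 and the glutathione peroxidase gpx-3. In limma's moderated test, at a Benjamini-Hochberg adjusted p under 0.05 over all 28387 probe sets, the interaction was higher in 160 probe sets (0.564% of those tested) and lower in 188 (0.662%). Members with a single symbol accounted for 150 of the first and 171 of the second. A change of at least 2-fold held in 304 of the 348 called, and 4930 probe sets (17.4%) had an unadjusted p under 0.05. The median interaction over all probe sets was 0.03. The median over the called ones was 1.65 for those higher and -1.29 for those lower.

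The simple effects came from the same 12 arrays as the interaction and describe where it arose. At 14 days nZVI soil gave 1081 probe sets higher (3.81%) and 1763 lower (6.21%) than control soil. At 0 days the counts were 2391 higher (8.42%) and 2290 lower (8.07%). When each array was centred on its median, the split at 14 days was 1416 higher and 1442 lower. The same centring gave 2869 higher and 1836 lower at 0 days, so the split depended on scaling at both times. Of the 160 probe sets with a higher interaction, 35 were called higher at 14 days and lower at 0 days, 68 were called higher at 14 days alone, and 37 were called lower at 0 days alone. Another 16 were lower at both times and 3 were higher at both. Of the 188 with a lower interaction, 16 were called lower at 14 days and higher at 0 days, 36 were called lower at 14 days alone, 111 were called higher at 0 days alone, 22 were higher at both times and 3 were lower at both.

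Both soils contributed to these differences. Within nZVI soil, 14 days gave 1258 probe sets higher (4.43%) and 1569 lower (5.53%) than 0 days. Within control soil the counts were 2022 higher (7.12%) and 2212 lower (7.79%). Of the 160 probe sets with a higher interaction, 135 were higher at 14 days than at 0 days in nZVI soil, and 39 were lower in control soil. Of the 188 with a lower interaction, 110 were lower at 14 days in nZVI soil, and 94 were higher in control soil. The called probe sets were brighter than most, with a median mean signal of 5.93 for those higher and 6.20 for those lower, against 3.94 over all. At the threshold, col-12 (1.81 ± 0.40, adjusted p = 0.0499) lay just inside and col-164 (2.66 ± 0.59, adjusted p = 0.0506) just outside. Errors after ± are standard errors from the limma fit unless stated otherwise.

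**Figure D2:**
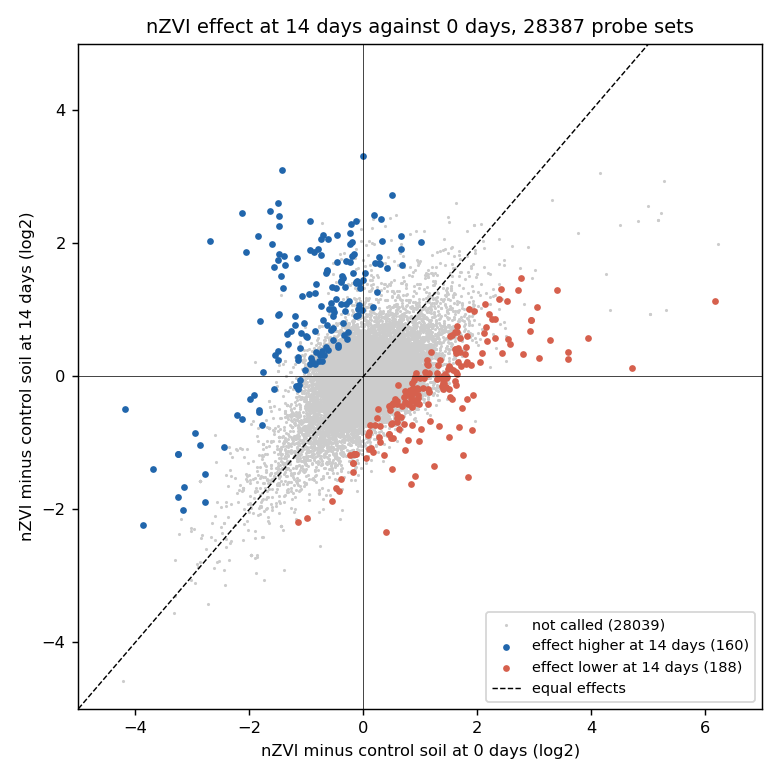
nZVI minus control soil at 14 days (vertical axis, log2) against the same difference at 0 days (horizontal axis, log2) for 28387 probe sets. The 160 with a higher interaction (blue) lie above the dashed line of equal effects, 35 of them called higher at 14 days and lower at 0 days, and the 188 with a lower interaction (red) lie below it.

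Cuticle collagens made up the largest named class among the genes called, and 12 of the 15 members with the highest interaction. The other three were E01G4.6, Y51H7C.13 and irg-6. Of 153 measured genes of the col class, 44 had a higher interaction and none a lower one, and 132 of the 153 estimates were positive. The class median was 0.87, against 0.03 over all probe sets. At 14 days 82 of the 153 were called higher in nZVI soil and none lower, against 3.81% and 6.21% of all probe sets. At 0 days 7 were called higher and 21 lower, against 8.42% and 8.07%. The 44 divided into 18 called higher at 14 days and lower at 0 days and 26 called higher at 14 days alone. In nZVI soil 63 of the 153 were higher at 14 days than at 0 days and 3 were lower (4.43% and 5.53% of all probe sets). In control soil 2 were higher and 11 lower (7.12% and 7.79% of all probe sets), so the lower count there was near that share. Collagen genes are alike in sequence, so probe sets of close members may share signal.

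Several collagens named for their effect on the worm's shape or skin changed sides between the times. At 14 days rol-1, a cuticle collagen whose mutants roll as they crawl, measured 9.49, 8.22 and 9.42 in nZVI soil, against 6.79, 7.33 and 6.91 in control soil. At 0 days it measured 4.38, 4.22 and 4.04 in nZVI soil, against 6.66, 6.87 and 7.17 in control soil. The soils did not overlap at either time, and their order was opposite: nZVI was 4.10-fold higher at 14 days and 6.43-fold lower at 0 days. The interaction of rol-1 was 4.72 ± 0.40 (limma, adjusted p = 9.84e-05), the highest of all single-symbol members. Between times nZVI soil was higher by 4.83 ± 0.29 at 14 days (adjusted p = 1.42e-06), and control soil differed by 0.11 ± 0.29 (adjusted p = 0.855).

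The same order was seen in bli-2 and bli-6, which with bli-1 are the blister collagens that belong to the adult coat and whose mutants form fluid-filled blisters. At 14 days bli-2 measured 7.96, 7.11 and 8.22 in nZVI soil, against 5.35, 5.04 and 5.64 in control soil. The 0-day signals were 4.03, 3.64 and 3.26 in nZVI soil, against 4.82, 5.40 and 5.12 in control soil. The nZVI arrays were all above the control arrays at 14 days and all below them at 0 days, and the interaction was 3.89 ± 0.40 (limma, adjusted p = 0.000446). For bli-6 the 14-day values were 7.08, 6.39 and 6.97 in nZVI soil, against 4.42, 4.66 and 4.58 in control soil. At 0 days bli-6 had 3.30, 3.37 and 3.49 in nZVI soil, against 4.56, 4.82 and 5.24 in control soil. Again neither time had an overlap, with an interaction of 3.75 ± 0.28 (adjusted p = 7.1e-05). The interaction of bli-1 was 2.81 ± 0.39 (adjusted p = 0.00375), with a 14-day effect of 2.06 ± 0.27 (adjusted p = 0.000347) and a 0-day effect of -0.75 ± 0.27 that did not pass (adjusted p = 0.0823).

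Of 9 collagens listed as adult or pre-adult, all 9 had a higher interaction (median 2.81), against 0.564% of all probe sets. All 9 were called higher at 14 days (3.81%), and 4 were called lower at 0 days (8.07%). The interaction count was 7 to 9 when 1 array was left out, and 8 with all 18 arrays or with either replicate block. The list shares members such as col-38 with the col class, so these counts are not independent. Of these 9, col-38 is a collagen of the young adult. It measured 9.16, 8.20 and 9.34 in nZVI soil at 14 days, against 6.33, 6.69 and 6.33 in control soil. At 0 days col-38 had 3.70, 5.18 and 4.36 in nZVI soil, against 5.72, 7.13 and 6.76 in control soil. Its interaction was 4.57 ± 0.58 (limma, adjusted p = 0.00222). The adult marker col-19 differed from this form. At 14 days it measured 8.50, 9.43 and 8.61 in nZVI soil, against 6.50, 6.38 and 6.40 in control soil. At 0 days the soils overlapped, with 7.89, 7.38 and 7.17 in nZVI soil, against 7.64, 7.25 and 7.02 in control soil. The interaction of col-19 was 2.25 ± 0.35 (adjusted p = 0.00906). Control soil contributed, since its col-19 signal at 14 days minus that at 0 days was -0.88 ± 0.25 (adjusted p = 0.0331).

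**Figure D3:**
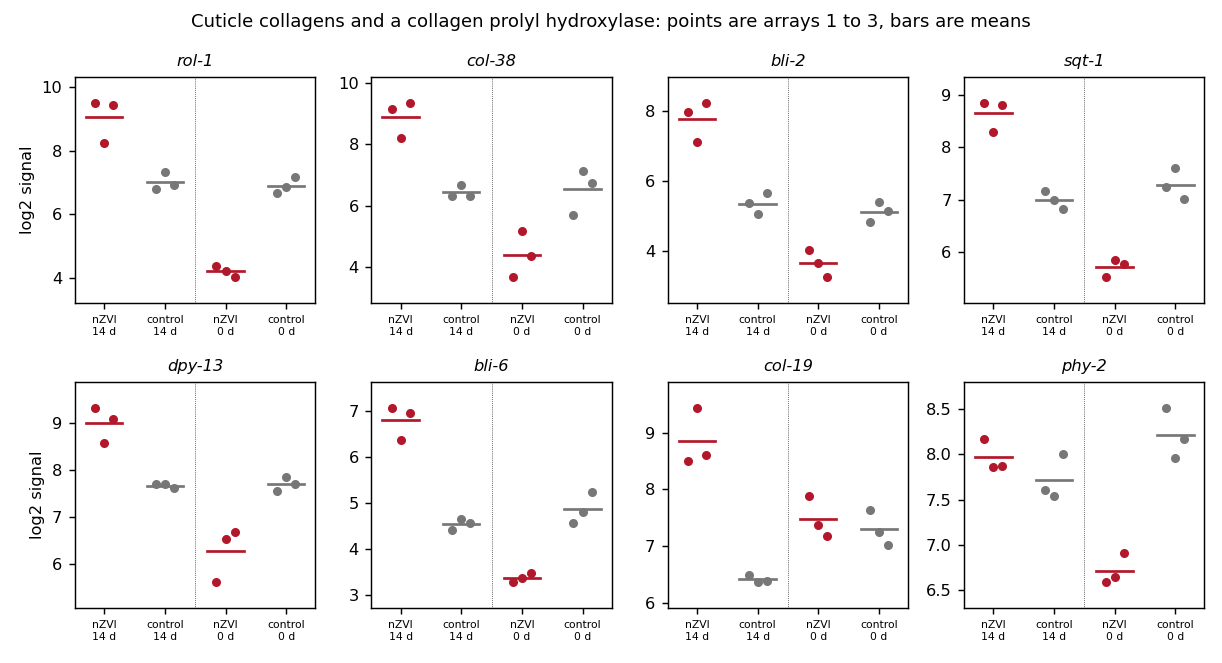
Log2 signal (vertical axes) of 7 cuticle collagens and the collagen-modifying enzyme phy-2 on each array, by soil and time along the horizontal axis, with bars at group means. In rol-1, col-38, bli-2, sqt-1, dpy-13 and bli-6 the nZVI arrays (red) lie above the control arrays (grey) at 14 days and below them at 0 days, without overlap. For col-19 the soils overlap at 0 days, and for phy-2 at 14 days.

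Of 18 body-shape collagens and processing enzymes, 7 had a higher interaction, against 0.564% of all probe sets, and none a lower one (median 0.41). These were rol-1, sqt-1, sqt-2, dpy-13, dpy-5, dpy-4 and rol-6, of which the last 3 are named only to complete the count. At 14 days sqt-1, a collagen needed for normal body form, measured 8.84, 8.28 and 8.80 in nZVI soil, against 7.16, 6.99 and 6.82 in control soil. At 0 days sqt-1 had 5.53, 5.85 and 5.77 in nZVI soil, against 7.24, 7.61 and 7.01 in control soil. The interaction was 3.22 ± 0.27 (limma, adjusted p = 9.6e-05), with no overlap of soils at either time. For dpy-13, whose mutants are short, the interaction was 2.74 ± 0.35 (adjusted p = 0.00253), from an effect of 1.33 ± 0.25 at 14 days and of -1.41 ± 0.25 at 0 days. For sqt-2 it was 2.42 ± 0.20 (adjusted p = 9.6e-05), from 0.94 ± 0.14 and -1.48 ± 0.14.

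The brightest members of that list did not pass. The interaction of sqt-3, a body-shape collagen, was -0.53 (95% interval -1.34 to 0.28, adjusted p = 0.497), and that of dpy-17, a collagen secreted together with it, -0.78 (95% interval -2.13 to 0.57, adjusted p = 0.554). The array that stood apart was low in both: at 14 days dpy-17 measured 10.84, 8.41 and 10.44 in nZVI soil, against 9.88, 9.94 and 10.13 in control soil. Of 5 furrow collagens, which shape the ring-like grooves of the cuticle, dpy-8 alone passed (1.49 ± 0.32, adjusted p = 0.0429), and it lost its call in 11 of 12 fits that left out 1 array. Without array 2 of nZVI soil at 14 days, 2 furrow collagens were called, with a list median of 0.35 in place of -0.08. The 4 col genes with the smallest p were col-138 (4.12 ± 0.36), col-162 (3.97 ± 0.41), col-73 (3.60 ± 0.29) and col-71 (3.25 ± 0.34), with adjusted p-values from 9.6e-05 to 0.000446, and all were called in opposite directions at the times. The bright col-10 had -0.04 (95% interval -0.60 to 0.51) and col-94 had 0.54 (95% interval -0.05 to 1.13), so the change was not shared by every col gene.

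Counts in other cuticle lists, and in the lists that follow, are set against 0.564% called higher and 0.662% called lower over all probe sets. Short lists without a call were thus near these shares. None of 34 cuticlins, which form other layers of the cuticle, was called (median -0.41), and 6 had an unadjusted p under 0.05, a share near the 17.4% of all probe sets. Without array 2 of nZVI soil at 14 days, 2 cuticlins were called higher and the median was -0.20. None of 21 hypodermis and moulting genes was called (median -0.39), with 3 at an unadjusted p under 0.05, and without that array the median was -0.14. Of 67 abu and pqn genes, a family of glutamine- and cysteine-rich secreted proteins, abu-1 (2.38 ± 0.35, limma, adjusted p = 0.0057), abu-4 (2.21 ± 0.31, adjusted p = 0.00389) and pqn-2 (2.46 ± 0.41, adjusted p = 0.0124) were higher, against a list median of -0.16, and without that array 6 were. At 14 days abu-1 measured 5.68, 5.59 and 5.76 in nZVI soil, against 3.74, 3.13 and 3.71 in control soil. At 0 days abu-1 overlapped, with 2.72, 3.15 and 3.76 in nZVI soil, against 3.34, 3.21 and 3.77 in control soil. The astacin protease nas-8 was the single called member of 36 (1.1 ± 0.24, adjusted p = 0.0437). Its call was lost in 8 of the 12 fits that left out 1 array, while without array 2 of nZVI soil at 14 days 5 astacins were called higher.

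Collagen chains are hydroxylated by prolyl 4-hydroxylase, whose catalytic subunits in the worm's skin are phy-2 and dpy-18. At 14 days phy-2 measured 8.16, 7.86 and 7.88 in nZVI soil, against 7.60, 7.54 and 8.0 in control soil, and the soils overlapped. Its values at 0 days were 6.60, 6.65 and 6.91 in nZVI soil, against 8.51, 7.96 and 8.17 in control soil. The interaction of phy-2 was 1.75 ± 0.25 (limma, adjusted p = 0.00489), and its 0-day effect was -1.49 ± 0.18 (adjusted p = 0.000105). That of dpy-18 was 0.27 (95% interval -0.25 to 0.79, adjusted p = 0.605).

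Ferritin moved the other way. At 14 days ftn-1, the iron-inducible ferritin of the intestine, measured 5.07, 4.36 and 4.76 in nZVI soil, against 4.55, 4.39 and 4.42 in control soil. At 0 days it measured 7.60, 7.67 and 7.68 in nZVI soil, against 4.50, 4.93 and 4.30 in control soil. The 0-day nZVI arrays lay far above all others, and the 14-day soils overlapped. The nZVI effect was thus 1.21-fold at 14 days (0.28 ± 0.19, adjusted p = 0.444) and 8.42-fold at 0 days (3.07 ± 0.19, adjusted p = 1.17e-06), and the interaction was -2.79 ± 0.27 (limma, adjusted p = 0.000286). Control soil did not differ detectably between times (-0.13 ± 0.19, adjusted p = 0.727).

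The other worm ferritin, ftn-2, which is far brighter, gave the same order on a smaller scale. It measured 10.99, 10.86 and 10.95 in nZVI soil at 14 days, against 11.03, 11.11 and 11.03 in control soil. At 0 days ftn-2 had 11.62, 11.49 and 11.55 in nZVI soil, against 10.91, 11.02 and 10.94 in control soil. Its interaction was -0.72 ± 0.16 (limma, adjusted p = 0.0444), a call that was lost in each of the 12 fits that left out 1 array. The estimate itself stayed between -0.75 and -0.69 in those fits. The ferritins ftn-1 and ftn-2 were the only called members of 12 genes of iron storage, export and import, whose median was -0.01.

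The ferroportin homologue fpn-1.2, an iron exporter by homology, was higher with nZVI at both times. At 14 days it measured 7.11, 7.03 and 7.40 in nZVI soil, against 5.38, 5.18 and 4.89 in control soil. At 0 days fpn-1.2 had 6.37, 6.54 and 6.90 in nZVI soil, against 4.62, 4.32 and 4.58 in control soil. The soils were apart at both times, by 2.03 ± 0.18 and 2.1 ± 0.18, and the interaction was -0.07 (95% interval -0.61 to 0.48, limma, adjusted p = 0.925). The estimate for the divalent metal importer smf-2 was less precise, at -1.26 (95% interval -2.69 to 0.18, adjusted p = 0.351). The importer smf-3 had 0.72 (95% interval 0.17 to 1.27, adjusted p = 0.179). None of 13 heme-responsive and none of 19 zinc transport genes was called, with 3 and 5 at an unadjusted p under 0.05, against 17.4% of all probe sets.

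Among 14 metal detoxification genes, cdr-1 was the only one called. It encodes a lysosomal protein induced by cadmium. At 14 days cdr-1 measured 8.74, 8.72 and 8.76 in nZVI soil, against 7.82, 7.74 and 7.62 in control soil. The 0-day signals were 7.34, 7.26 and 7.01 in nZVI soil, against 7.90, 7.86 and 7.65 in control soil. The nZVI arrays were above control at 14 days (2.02-fold) and below at 0 days (1.51-fold lower), with an interaction of 1.61 ± 0.18 (limma, adjusted p = 0.00103).

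The other 13 metal detoxification genes did not pass. Its relative cdr-4 was lower with nZVI at both times, by -1.64 ± 0.13 at 14 days and -1.15 ± 0.13 at 0 days, and its interaction of -0.48 (95% interval -0.88 to -0.08) did not pass (limma, adjusted p = 0.209). The metallothioneins, which bind cadmium and zinc, had 0.27 for mtl-1 (95% interval -0.20 to 0.75, adjusted p = 0.559) and 0.20 for mtl-2 (95% interval -0.18 to 0.57, adjusted p = 0.598). Both metallothioneins were bright, at 10.86 to 12.22 on every array, against a median mean signal of 3.94 over all probe sets. Whether such bright signals made the estimates smaller was not tested. The nuclear metal-responsive gene numr-1 had 0.20 (95% interval -0.68 to 1.08).

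**Figure D4:**
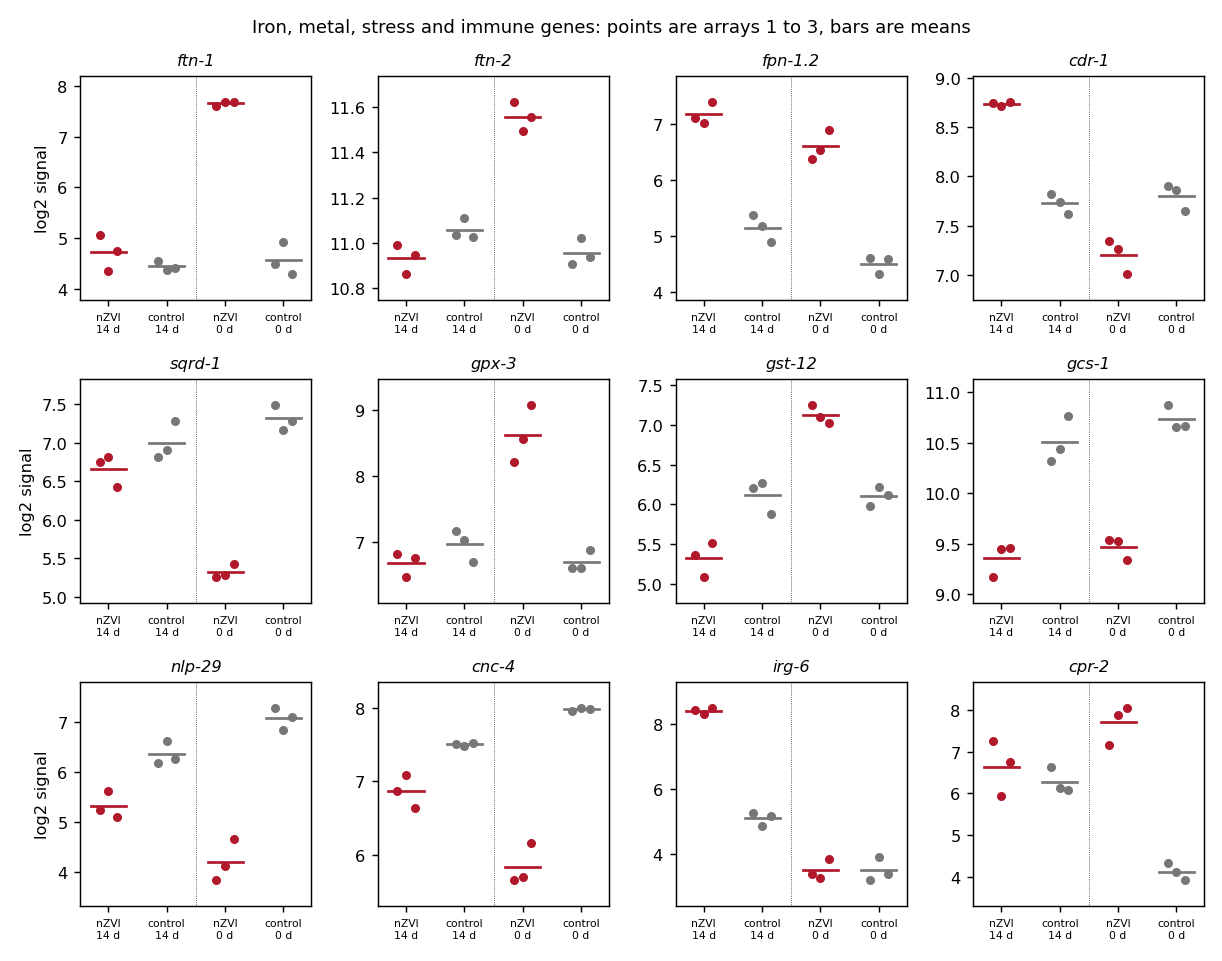
Log2 signal (vertical axes) of 12 iron, metal, stress and immune genes on each array, by soil and time along the horizontal axis, with nZVI soil in red, control soil in grey and bars at group means. For ftn-1 the nZVI arrays at 0 days (7.60 to 7.68) lie above every other array, while for irg-6 the nZVI arrays at 14 days (8.31 to 8.50) do. The nZVI arrays of fpn-1.2 lie above control at both times, and those of gcs-1 below.

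Glutathione genes included some that were lower with nZVI at both times and others whose effect turned. The rate-limiting enzyme of glutathione synthesis, gcs-1, was lower with nZVI by -1.15 ± 0.15 at 14 days and -1.26 ± 0.15 at 0 days, with an interaction of 0.12 (95% interval -0.34 to 0.57, limma, adjusted p = 0.82). For gst-4, a glutathione S-transferase used as a reporter of the oxidative stress factor SKN-1, the interaction was 0.15 (95% interval -0.69 to 0.98, adjusted p = 0.883), from -1.61 ± 0.27 and -1.76 ± 0.27. The exception among 13 SKN-1 and glutathione genes was gst-12. At 14 days gst-12 measured 5.36, 5.09 and 5.52 in nZVI soil, against 6.20, 6.27 and 5.88 in control soil. Its values at 0 days were 7.25, 7.10 and 7.02 in nZVI soil, against 5.98, 6.22 and 6.12 in control soil. Its soils changed places between the times, without overlap at either, and the interaction was -1.81 ± 0.22 (adjusted p = 0.00133).

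Of 48 glutathione S-transferases, gst-12, gst-14 and gst-33 had a lower interaction and gst-9 a higher one. Over all probe sets 0.662% were called lower and 0.564% higher in the interaction. The interaction of gst-14 was -1.74 ± 0.27 (limma, adjusted p = 0.00906), with an effect of -0.96 ± 0.19 at 14 days and 0.78 ± 0.19 at 0 days, both called. For gst-33 it was -1.45 ± 0.27 (adjusted p = 0.0248). The transferase gst-9 was lower with nZVI at both times, by -1.81 ± 0.21 at 14 days and -3.25 ± 0.21 at 0 days, so its interaction of 1.44 ± 0.30 (adjusted p = 0.0377) was a smaller deficit. Leaving out 1 array lost the call of gst-9 in 10 of 12 fits and that of gst-33 in 5.

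Of the peroxide-removing enzymes, gpx-3 and ctl-2 differed between soils at 0 days and not detectably at 14 days. The glutathione peroxidase gpx-3 measured 6.83, 6.48 and 6.76 in nZVI soil at 14 days, against 7.16, 7.04 and 6.70 in control soil. At 0 days gpx-3 had 8.21, 8.56 and 9.08 in nZVI soil, against 6.61, 6.61 and 6.89 in control soil. The soils overlapped at 14 days but not at 0 days, and the interaction was -2.2 ± 0.29 (limma, adjusted p = 0.00312). The peroxisomal catalase ctl-2 had -1.02 ± 0.21 (adjusted p = 0.0408), partly through control soil, where it was higher by 0.76 ± 0.15 at 14 days (adjusted p = 0.00642). Its call was lost in 9 of 12 fits that left out 1 array. These were the 2 called of 26 superoxide dismutases, catalases and peroxidases. The mitochondrial superoxide dismutase sod-3 had -0.39 (95% interval -1.22 to 0.43, adjusted p = 0.64).

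Of 13 genes of hypoxia and hydrogen sulphide handling, 3 had a higher interaction: phy-2, described above, sqrd-1 and cysl-2. The share over all probe sets was 0.564%. The mitochondrial sulphide oxidase sqrd-1 measured 6.75, 6.82 and 6.42 in nZVI soil at 14 days, against 6.81, 6.90 and 7.28 in control soil. At 0 days it measured 5.26, 5.29 and 5.43 in nZVI soil, against 7.49, 7.17 and 7.28 in control soil. The soils overlapped at 14 days (-0.33 ± 0.16, limma, adjusted p = 0.247) and were apart at 0 days (-1.99 ± 0.16, adjusted p = 6.73e-06), and the interaction was 1.65 ± 0.23 (adjusted p = 0.00357). The cysteine synthase family member cysl-2 had 1.06 ± 0.22 (adjusted p = 0.0339), from -0.05 ± 0.15 at 14 days and -1.11 ± 0.15 at 0 days, and lost its call in 8 of 12 fits that left out 1 array. Heat shock genes gave no calls: none of 12 small heat shock genes, with 2 at an unadjusted p under 0.05, and none of 12 cytosolic chaperones, with 1, against 17.4% of all probe sets. The interaction of hsp-16.2, a heat- and stress-inducible small chaperone, was 0.16 (95% interval -0.59 to 0.90, adjusted p = 0.856), from -1.74 ± 0.24 at 14 days and -1.90 ± 0.24 at 0 days.

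Several epidermal antimicrobial peptides had a smaller deficit with nZVI at 14 days than at 0 days. Of 11 epidermal nlp peptides, nlp-29, nlp-30, nlp-32 and nlp-33 had a higher interaction and none a lower one (median 0.99). At 0 days 6 of the 11 were called lower with nZVI, and at 14 days 4, against 8.07% and 6.21% of all probe sets. For a higher interaction that share was 0.564%. The peptide nlp-29, induced by fungal infection and wounding, measured 5.24, 5.61 and 5.11 in nZVI soil at 14 days, against 6.19, 6.62 and 6.26 in control soil. At 0 days nlp-29 had 3.84, 4.12 and 4.66 in nZVI soil, against 7.29, 6.85 and 7.10 in control soil. nZVI arrays were below control arrays at both times, by -1.04 ± 0.22 at 14 days and -2.87 ± 0.22 at 0 days, and the interaction was 1.83 ± 0.31 (limma, adjusted p = 0.0124). The others had 1.29 ± 0.20 (nlp-30), 1.04 ± 0.20 (nlp-32) and 1.33 ± 0.22 (nlp-33), with adjusted p-values of 0.00906, 0.029 and 0.0139, and nlp-32 lost its call in 8 of 12 fits that left out 1 array. For nlp-33 the difference of 14 days minus 0 days was -0.06 ± 0.16 in nZVI soil (adjusted p = 0.859) and -1.39 ± 0.16 in control soil (adjusted p = 0.000673).

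The caenacins, a related family of epidermal peptides, gave 3 higher interactions of 11 (median 0.76), against 0.564% of all probe sets. At 0 days 7 of the 11 were called lower with nZVI (8.07% of all probe sets). At 14 days 4 were called lower and 1 higher (6.21% and 3.81%). At 14 days cnc-4 measured 6.86, 7.08 and 6.64 in nZVI soil, against 7.51, 7.47 and 7.51 in control soil. At 0 days cnc-4 had 5.66, 5.70 and 6.15 in nZVI soil, against 7.95, 8.0 and 7.98 in control soil. The soils were apart at both times, and the gap was smaller at 14 days: the interaction was 1.5 ± 0.22 (limma, adjusted p = 0.00548). The other called caenacins were cnc-9 (1.56 ± 0.34, adjusted p = 0.0484) and cnc-11 (1.37 ± 0.26, adjusted p = 0.0272). The estimated nZVI effect of cnc-9 changed sign, at 0.85 at 14 days and -0.71 at 0 days. That of cnc-11 was negative at both times, at -1.07 and -2.44. For both, control soil was lower at 14 days than at 0 days, by -1.06 ± 0.24 for cnc-9 and -1.03 ± 0.19 for cnc-11, and nZVI soil was not called between times. Leaving out 1 array lost the call of cnc-9 in 10 of 12 fits and that of cnc-11 in 7. Members of both peptide families lie close in sequence, so their probe sets may share signal.

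The infection response genes irg-6 and irg-4 gained a large nZVI effect at 14 days. The transcript of irg-6 measured 8.43, 8.31 and 8.50 in nZVI soil at 14 days, against 5.26, 4.86 and 5.18 in control soil. At 0 days irg-6 had 3.37, 3.26 and 3.83 in nZVI soil, against 3.20, 3.90 and 3.39 in control soil. The soils overlapped at 0 days and were 9.96-fold apart at 14 days, when control soil too stood above its 0-day level (1.60 ± 0.20, limma, adjusted p = 0.000755). The interaction of irg-6 was 3.32 ± 0.28 (adjusted p = 9.6e-05). Of the same gene class, irg-4 had 10.30, 10.27 and 10.65 in nZVI soil at 14 days, against 8.13, 8.53 and 8.96 in control soil. At 0 days irg-4 had 6.91, 6.99 and 6.70 in nZVI soil, against 7.69, 7.67 and 7.82 in control soil, so its soils changed places (2.73 ± 0.27, adjusted p = 0.000386). These were the 2 called of 8 irg genes, whose median was 0.02.

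The CUB-domain gene dod-24, which responds to bacterial pathogens, measured 10.45, 10.25 and 10.40 in nZVI soil at 14 days, against 8.16, 8.11 and 7.74 in control soil. The 0-day signals were 7.08, 7.31 and 7.39 in nZVI soil, against 6.83, 6.97 and 7.05 in control soil. The soils did not overlap at either time. The separation at 14 days was 2.36 ± 0.15, and at 0 days 0.31 ± 0.15 did not pass (limma, adjusted p = 0.174), which gave an interaction of 2.05 ± 0.21 (adjusted p = 0.000419). Its relatives dod-22 (1.01 ± 0.20, adjusted p = 0.031) and dod-17 (-0.86 ± 0.18, adjusted p = 0.0391) went apart. For dod-17 the difference of 14 days minus 0 days was 0.67 ± 0.13 in nZVI soil and 1.52 ± 0.13 in control soil (adjusted p = 9.92e-05). Leaving out 1 array lost the call of dod-22 in 8 of 12 fits and that of dod-17 in 10. Together they were 3 of 12 thaumatin and CUB-domain genes.

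Some antimicrobial genes had a lower interaction. The defensin-like abf-5 measured 6.22, 5.80 and 6.10 in nZVI soil at 14 days, against 5.98, 5.89 and 5.72 in control soil. At 0 days abf-5 had 7.76, 8.11 and 7.74 in nZVI soil, against 6.38, 6.08 and 5.74 in control soil. The 0-day difference of 1.80 ± 0.18 was 0.18 ± 0.18 at 14 days, with an interaction of -1.62 ± 0.25 (limma, adjusted p = 0.00901). From the same family, abf-6 had -1.47 ± 0.21 (adjusted p = 0.00527), and the remaining 4 of the 6 antibacterial factors did not pass. Of 247 C-type lectins, sugar-binding proteins many of which are secreted in the gut, 6 were higher and 6 lower. Over all probe sets the shares were 0.564% and 0.662%. Leaving out 1 array gave 1 to 7 lectins in each direction, both lowest without control array 2 at 14 days. The 4 with the smallest p were clec-218 (1.52 ± 0.25), clec-163 (-1.84 ± 0.28), clec-121 (-2.74 ± 0.48) and clec-7 (-1.2 ± 0.23), of which clec-121 lost its call in 3 such fits and clec-7 in 6. Of 44 lysozymes and saposin-like proteins, spp-17 (1.54 ± 0.33) and spp-4 (1.1 ± 0.22) were higher and the invertebrate lysozyme ilys-3 (-1.21 ± 0.24) was lower, each losing its call in 9 of 12 such fits. None of 37 pals genes, a family tied to intracellular infection, was called, and 3 had an unadjusted p under 0.05, against 17.4% of all probe sets.

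Of the 15 members with the lowest interaction, 10 were called in the nZVI effect at 0 days alone. The lowest, Y59A8B.26, measured 7.81, 3.85 and 7.71 in nZVI soil at 14 days, against 5.55, 5.08 and 5.33 in control soil. Its values at 0 days were 9.36, 9.66 and 9.80 in nZVI soil, against 3.24, 3.91 and 3.17 in control soil. The low value belonged to the array that stood apart, and the interaction of -5.04 ± 1.07 (limma, adjusted p = 0.0418) was called in only 3 of 12 fits that left out 1 array. Without that array it was -3.73 and still called. The fungus-induced-related peptide fipr-25 measured 4.23, 2.24 and 4.41 in nZVI soil at 14 days, against 3.29, 3.40 and 3.82 in control soil. At 0 days fipr-25 had 6.44, 7.85 and 7.43 in nZVI soil, against 2.57, 2.61 and 2.38 in control soil. Its interaction of -4.59 ± 0.67 (adjusted p = 0.00548) was called in all 12 such fits. Of 35 fip and fipr genes, 2 had a lower interaction and 2 a higher one. The higher ones were fipr-22, with nZVI effects of -1.39 at 14 days and -3.69 at 0 days, and fipr-26, with -0.73 and -1.78. Leaving out 1 array lost the call of fipr-22 in 6 of 12 fits and that of fipr-26 in 9.

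In others the change lay largely in control soil. At 14 days cyts-1 measured 7.67, 6.93 and 7.75 in nZVI soil, against 6.61, 6.89 and 7.12 in control soil. At 0 days cyts-1 had 8.63, 7.98 and 8.19 in nZVI soil, against 3.93, 4.64 and 4.42 in control soil. The difference of 14 days minus 0 days was -0.82 ± 0.25 in nZVI soil (limma, adjusted p = 0.0594) and 2.54 ± 0.25 in control soil (adjusted p = 0.000403), and the interaction was -3.36 ± 0.36 (adjusted p = 0.000577). For the cathepsin B-like protease cpr-2 both soils changed. It measured 7.26, 5.93 and 6.75 in nZVI soil at 14 days, against 6.63, 6.12 and 6.07 in control soil. At 0 days cpr-2 had 7.17, 7.90 and 8.06 in nZVI soil, against 4.32, 4.10 and 3.92 in control soil. Its interaction was -3.22 ± 0.44 (adjusted p = 0.00338), with 14 days minus 0 days at -1.06 ± 0.31 in nZVI soil (adjusted p = 0.0463) and 2.16 ± 0.31 in control soil (adjusted p = 0.0015). It was the single call among 11 cathepsin-like proteases.

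Further members of the lowest 15 changed sides. The lipase-related gene lips-11 measured 6.17, 5.55 and 5.83 in nZVI soil at 14 days, against 6.83, 7.12 and 7.16 in control soil. At 0 days lips-11 had 6.73, 7.52 and 7.21 in nZVI soil, against 4.86, 5.53 and 5.85 in control soil. Its interaction was -2.93 ± 0.37 (limma, adjusted p = 0.00198). The sodium-calcium exchanger family member ncx-8 had -2.59 ± 0.38 (adjusted p = 0.00602), from -1.35 ± 0.27 at 14 days and 1.24 ± 0.27 at 0 days, both called. The transthyretin-like ttr-28 had -2.70 ± 0.35 (adjusted p = 0.00259), with a 14-day effect of -0.80 ± 0.25 that did not pass (adjusted p = 0.0605).

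Calls in the detoxification and transport lists were nearly all lower. Over all probe sets 0.662% were called lower and 0.564% higher. Of 74 cytochromes P450, which oxidise foreign and lipid substrates, 4 were lower and none higher: cyp-34A2 (-2.1 ± 0.35), cyp-33C12 (-1.3 ± 0.25), cyp-29A2 and cyp-34A1. Leaving out 1 array gave 0 to 5 lower, the fewest without control array 2 at 14 days and the most without nZVI array 1 at 14 days. The call of cyp-34A2 was lost in 1 such fit, that of cyp-33C12 in 6, that of cyp-34A1 in 10 and that of cyp-29A2 in 11. At 14 days cyp-34A2 measured 6.96, 6.06 and 7.23 in nZVI soil, against 5.36, 5.58 and 5.39 in control soil. At 0 days it measured 7.67, 7.21 and 7.81 in nZVI soil, against 4.10, 4.12 and 4.27 in control soil. It was higher with nZVI at both times, with the smaller gap at 14 days. Of 67 UDP-glucuronosyltransferases only ugt-66 was called (-1.84 ± 0.40), and its call was lost in 8 of 12 such fits. Of 53 ABC transporters the efflux pumps mrp-8 (-1.4 ± 0.30), pgp-10 (-1.32 ± 0.28) and pgp-14 (-1.21 ± 0.19) were lower, of which mrp-8 and pgp-10 lost their calls in 9 such fits each and pgp-14 in none. In pgp-10 the change lay in control soil, which was higher by 1.41 ± 0.20 at 14 days (limma, adjusted p = 0.00143).

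For the metabolic and further lists, the shares over all probe sets were again 0.662% called lower and 0.564% called higher. Of 73 genes of fatty acid activation and beta-oxidation, the peroxisomal acyl-CoA oxidase acox-1.1 (-1.64 ± 0.33) and the acyl-CoA synthetases acs-3 (-1.4 ± 0.31) and acs-14 (-0.95 ± 0.19) were lower, and leaving out 1 array gave 0 to 3. Of 22 glycolysis genes the pyruvate kinase pyk-2 was lower (-0.98 ± 0.20), a call lost in 10 of 12 such fits. Of 17 aspartyl proteases asp-14 (0.88 ± 0.18) and asp-17 (1.03 ± 0.20) were higher, with 0 to 2 when 1 array was left out. Of 40 insulin-like peptides ins-8 (-1.73 ± 0.33) and ins-20 (-1.68 ± 0.26) were lower, ins-8 losing its call in 4 such fits and ins-20 in none. At 14 days ins-20 measured 5.43, 5.14 and 4.88 in nZVI soil, against 5.30, 5.36 and 5.02 in control soil. At 0 days ins-20 had 6.68, 6.17 and 6.58 in nZVI soil, against 5.03, 4.91 and 4.69 in control soil, so the soils were apart at 0 days alone. None of 75 ribosomal protein genes was called (median 0.06), with 0 at an unadjusted p under 0.05.

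**Figure D5:**
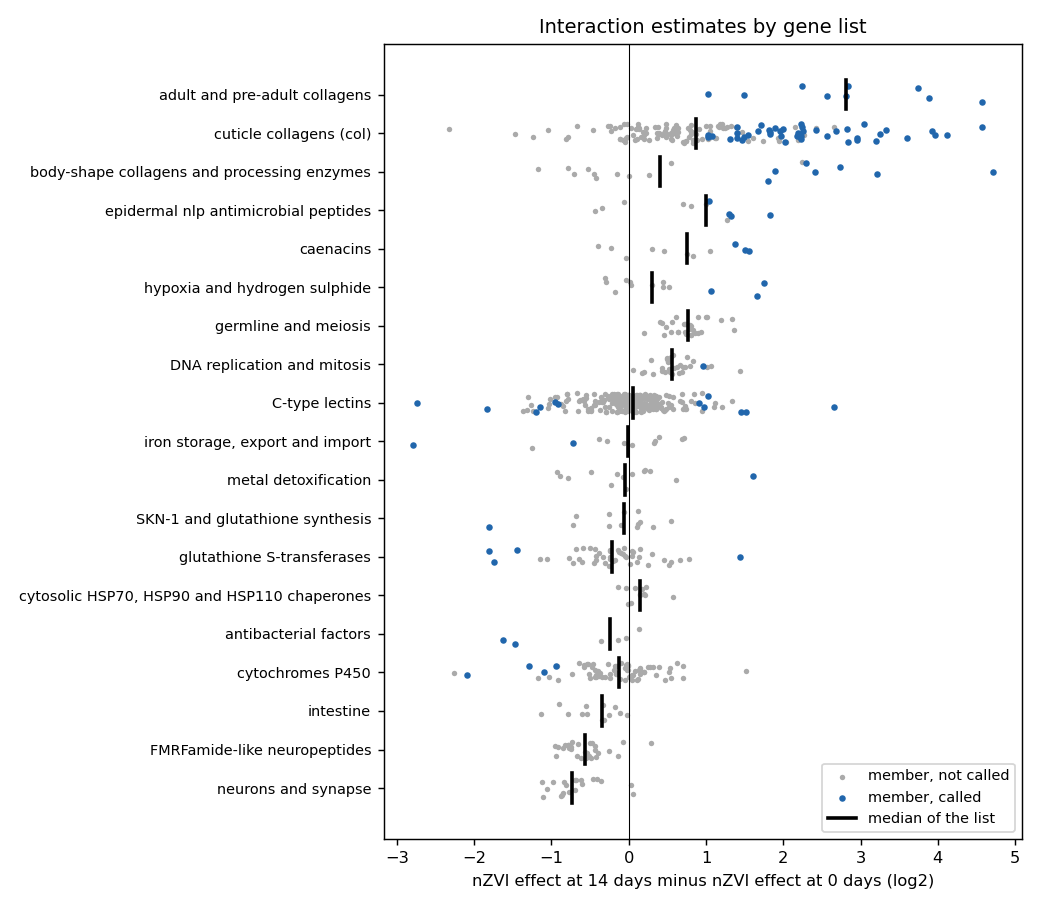
Interaction estimates (horizontal axis, log2) of the members of 19 gene lists (rows), with called members in blue, others in grey and a black bar at each list's median. All 9 adult and pre-adult collagens are called, with a median of 2.81. The germline list lies wholly above 0 and the intestine list wholly below it, with no member called.

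Several tissue lists leaned to a single side without calls. All 30 germline and meiosis genes had a positive estimate (median 0.76), none was called, and 20 had an unadjusted p under 0.05, against 17.4% of all probe sets. All 31 DNA replication and mitosis genes were positive (median 0.56), and the cyclin cye-1 alone was called (0.96 ± 0.21, limma, adjusted p = 0.0462). Its call was lost in 11 of 12 fits that left out 1 array, and with each array centred on its median or with quantile normalisation over the 12 arrays. Estimates were negative in 18 of 20 neuron and synapse genes (median -0.74), in 30 of 31 FMRFamide-like neuropeptides (median -0.56) and in all 14 intestine genes (median -0.34), again with no call, and with 15, 20 and 5 at an unadjusted p under 0.05. The bright germline gene gld-1, a translational repressor of meiosis, had 0.75 (95% interval 0.15 to 1.34, adjusted p = 0.195). The neuropeptide convertase egl-3 had -0.68 (95% interval -1.12 to -0.23, adjusted p = 0.13).

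The germline and neuron values moved with the array that stood apart: without it the medians were 0.53 for germline and meiosis genes and -0.53 for neuron and synapse genes. The germline median also moved with array 2 of nZVI soil at 0 days. Without that 0-day array the medians were 0.59 for germline and -0.74 for neuron genes. Mean germline signal ran from 7.47 to 8.21 in nZVI soil at 14 days, from 7.41 to 7.70 in control soil at 14 days, from 6.91 to 7.47 in nZVI soil at 0 days and from 7.76 to 7.91 in control soil at 0 days. Mean signal of the col genes ran from 5.96 to 6.58 in nZVI soil and from 5.27 to 5.37 in control soil at 14 days. At 0 days it ran from 5.24 to 5.59 in nZVI soil and from 5.44 to 5.60 in control soil. The array with the most germline signal had the lowest mean collagen signal of its group (5.96). The part of tissue or stage composition in the collagen result was not tested. Without that array 70 col genes had a higher interaction in place of 44, with a median of 1.09.

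The collagen count varied with other arrays as well. Over the 12 fits that left out 1 array it ran from 25 to 70, always with none lower. It was 29 without control array 1 at 0 days, 28 without control array 2 at 0 days, and 25 and 29 without control arrays 2 and 3 at 14 days. The 4 epidermal nlp calls ran from 3 to 4, and the 3 caenacin calls from 1 to 3. Of all probe sets called, 71 of 160 with a higher interaction and 50 of 188 with a lower one were called in every such fit. Among these were rol-1, col-38, bli-2, bli-6, sqt-1, dpy-13, col-19, phy-2, ftn-1, cdr-1, gst-12, gpx-3, sqrd-1, nlp-29, cnc-4, irg-6, dod-24 and abf-5.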

How the data were processed

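Total RNA of 18 samples was hybridised to C. elegans Gene 1.0 ST arrays, 1 array per sample, per the labels. The deposited table holds a log2 signal for each probe set and array. The submitters' processing notes name RMA, which corrects background, normalises quantiles and summarises probes, and the Transcriptome Analysis Console, with versions and genome build not given in the sources used here. A shift common to the bulk of genes would be lost by that normalisation.

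Probe sets were named from GEO's platform annotation, updated through the Entrez identifier: 25546 had a single symbol (25495 of them matched), 646 several and 2195 none. The 12 arrays of 0 and 14 days were fitted with limma 3.58.1 in R 4.3.3 (lmFit, contrasts.fit, eBayes), 1 coefficient per group, with 8 residual degrees of freedom. Tests were two-sided, with Benjamini-Hochberg adjustment over 28387 probe sets and calls at an adjusted p under 0.05. No filter was used on low signals. The fit was checked on simulated data, where it recovered 22% of added interactions of 1 log2 unit and 86% of those of 2. A gene that was not called may therefore still differ by 2-fold. The labels number the replicates but do not say that they came from separate cultures, so p-values measure the spread between these arrays, which may be technical. Their number limits the precision.

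The members, gene lists and tests were chosen with earlier results of these data known. Named genes were the 15 highest and 15 lowest of those called, up to 4 called members per list by smallest p, up to 3 bright members not called, and a fixed set of metal, stress and collagen genes. A gene with several probe sets was represented by the brightest. Of 67 lists with measured members, 35 held no call. Sequences and genome positions were not used here.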

Additional observations from a re-analysis of the deposited data

Results flagged for a closer look

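Every result here is a difference of the nZVI effect between 14 days and 0 days that passed its own test (limma, adjusted p under 0.05). Counted over probe sets there were 160 higher and 188 lower.

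Among named genes, the highest interactions were 4.72 (rol-1), 4.57 (col-38), 4.53 (E01G4.6), 4.12 (col-138), 3.97 (col-162), 3.93 (col-133), 3.89 (bli-2), 3.75 (bli-6), 3.60 (col-73), 3.33 (col-161), 3.32 (irg-6), 3.29 (Y51H7C.13), 3.25 (col-71), 3.22 (sqt-1) and 3.20 (col-114). Of these 15, 13 were called in opposite directions at the times and 2 at 14 days alone. All but col-114 were called in each of the 12 fits that left out 1 array, and col-114 in 7.

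The lowest interactions were -5.04 (Y59A8B.26), -4.59 (fipr-25), -3.36 (cyts-1), -3.35 (F35E8.6), -3.31 (F55H2.8), -3.22 (cpr-2), -2.93 (lips-11), -2.79 (ftn-1), -2.74 (clec-121), -2.72 (C06H5.11), -2.70 (ttr-28), -2.59 (ncx-8), -2.46 (Y38H6A.1), -2.45 (F35E8.1) and -2.42 (C30F12.3). Here 3 were called in opposite directions, 10 at 0 days alone and 2 at 14 days alone. Of these 15, 12 were called in each of the 12 fits, and Y59A8B.26 and F35E8.6 in 3 each.

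Among the fixed set of iron, metal and adult coat genes, the interactions that passed were also those of ftn-2 (-0.72), cdr-1 (1.61) and col-19 (2.25). Single genes were not searched for outlying arrays, since each group held 3.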

How the results depend on the processing

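Counts of the interaction stayed within 1.5 times of 160 higher and 188 lower with all 18 arrays, either scaling, a signal filter, another variance prior or a 2-fold minimum added to the adjusted p. With array weights they were 454 and 602, and at an unadjusted p under 0.05 with 2-fold 510 and 685. The labels do not say that equal replicate numbers share a culture or batch. Correlations of same-numbered deviations were 0.026, 0.069 and 0.155 at 14 days and 0.079, 0.022 and 0.226 at 0 days. They were weak but all positive. Correlations between different numbers ran from -0.119 to 0.064 at 14 days and from -0.194 to 0.125 at 0 days. Pairing by number was not tested further. The replicate block gave 128 and 174, and within time 134 and 151. Leaving out 1 array gave 72 to 277 higher and 57 to 357 lower, both lowest without control array 2 at 14 days, and highest without nZVI arrays 2 and 3 at 14 days.

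For the nZVI effect at 14 days (2844 called), array weights gave 6629, the 2-fold rules 1332 and 1206, and leaving out 1 array 1785 to 3423. For that at 0 days (4681), the 2-fold rules gave 1826 and 1707, and leaving out 1 array 2956 to 6352. Between times, nZVI soil (2827) gave 1233 and 1106 under the 2-fold rules and 1542 to 2898 leaving out 1 array. Control soil (4234) gave 8237 with array weights, 1403 and 1302 under the 2-fold rules, and 1983 to 5507 leaving out 1 array.

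The 51 probe sets called in opposite directions were 101 with array weights, 23 and 21 under the 2-fold rules, and 34 to 64 leaving out 1 array. Those called at 0 days alone (148) were 407, 383 with the unadjusted rule, and 53 to 305. Those called at 14 days alone (104) were 391, 230, and 35 to 195.

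Signs turned in 7 estimates left without 1 array, none of them called in any fit: fpn-1.2 ran from -0.20 to 0.083, gst-4 from -0.12 to 0.40 and hsp-16.2 from -0.053 to 0.44. The causes were not tested. The 104 named genes kept their side of the threshold in 83 to 104 cases in the 9 other settings that could be run on all of them, and in 64 to 97 with 1 array left out. List counts without array 2 of nZVI soil at 14 days were added after seeing the data.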

Other observations

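The arrays of 4 months, which entered no contrast of the report, gave a nZVI effect for the same genes in a fit over all 18 arrays. Of the 150 single-symbol members with a higher interaction, 73 were called higher and 6 lower at 4 months, against 1355 higher and 654 lower of all 28387 probe sets. Their median nZVI effect was -0.73 at 0 days, 1.08 at 14 days and 0.75 at 4 months. In 113 of them the 14-day and 0-day estimates had opposite signs, and the 4-month sign was that of 14 days in 96 and that of 0 days in 17. Of the 171 with a lower interaction, 19 were called higher and 3 lower at 4 months, with medians of 1.15 at 0 days, -0.18 at 14 days and 0.21 at 4 months. Of 95 with opposite signs, 60 had the 0-day sign at 4 months and 35 the 14-day sign. Of the 153 col genes, 44 were called higher at 4 months and none lower, with a median of 0.26.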
